A study of Rattus norvegicus with 15 samples.

Results

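This report describes 42 genes of the smooth muscle contractile apparatus and its control in the intestinal arrays of Goto-Kakizaki (GK) rats after Roux-en-Y gastric bypass (RYGB). The genes were listed by name, with no threshold on measured values, as contractile proteins, cytoskeletal proteins, signalling proteins and transcription factors of smooth muscle. A gene was taken where a probe outside the controls carried its name in the array files, under an older name for Gucy1a1 and Gucy1b1, and where several probes did, the brightest tested one stood for it. Of the 42 genes, 38 were found in this way and 36 could be tested, among 13024 tested genes in all. No probe carried the name of Acta2, Cnn2 or Mef2c, and these are not analysed here. Myl6 appeared as Myl6l, which is given apart. Itga8 and Prkg1 were not tested because they were well above background on 6 and 4 of the 15 arrays.

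Each of the 3 groups held 5 male rats, with 1 array per rat. Wistar rats, the nondiabetic strain from which GK rats were bred, had no operation. GK-Sham-PF rats were GK rats with a sham operation, an incision at 16 cm from the ligament of Treitz (called sham rats below). Their food was limited to the lowest mean intake among the study's RYGB groups, usually that of a group other than GK-S-30. GK-S-30 rats were GK rats with RYGB and a Roux limb (RL), the piece of gut joined to the stomach pouch, of 30 cm. GK rats were 16 wk old at surgery, and tissue was taken 14 wk later, after an overnight fast. Wistar rats were matched for age. From GK-S-30 rats a 5-cm piece of the RL was taken 5 cm below the join to the stomach, and from the other groups the 5-cm piece that starts 21 cm and ends 26 cm beyond the ligament of Treitz. The groups therefore differ in operation, in feeding, which was restricted only in sham rats, and, for Wistar, in strain as well. All GK rats share the diabetic background. The segments were frozen whole, and muscle, mucosa and nerve cells are mixed in each array, so fewer cells of a type and less RNA per cell cannot be told apart.

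Smooth muscle of the gut wall contracts when calcium, entering through voltage-gated channels or released from stores, activates myosin light chain kinase, which phosphorylates the regulatory light chain of smooth muscle myosin. Myosin phosphatase reverses this step. It is held back by CPI-17 and favored by nitric oxide and cyclic GMP, which relax the muscle. Thin-filament proteins (actins, tropomyosins, calponin, caldesmon, transgelin) and a desmin-based cytoskeleton anchored at dense plaques carry the force, and serum response factor with its partner myocardin drives transcription of many of these genes through the CArG box.

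Probe sequences are shown for 7 members on which the results turn and, with all their tested probes, for Itga7, Myh11 and Tpm1, whose probes are set side by side. Each line gives the first 30 of the 60 bases of a probe, 5′ to 3′, with no part in capitals, after its position in the rat build of the files (rn4) and the strand given by the order of the coordinates there. Whether a probe lies in coding or untranslated sequence was not determined.
Actg2, chr4:117735561-117735620, minus strand: aacatacaattccatcatgaagtgtgacat
Cnn1, chr8:21219991-21220050, plus strand: gagcggagatttgagcctgagaagctgaga
Tagln, chr8:48902736-48903116, minus strand: gtgaccaagaacgatggacactaccgtgga
Des, chr9:74645149-74645208, plus strand: gacagagctttgtggatatccccacattcg
Csrp1, chr13:48775389-48775447, plus strand: gagagcctaatgcataccttgaacaaggca
Ppp1r14a, chr1:84421849-84423883, plus strand: cagggaggcagacatgccagatgaggtcaa
Myocd, chr10:51496641-51496700, minus strand: tttgtgttactctggagacattggaaatca
Itga7, probe 1, chr7:2269332-2269391, plus strand: tgtgctctggccttagtgtgctgtaccagc
Itga7, probe 2, chr7:2264646-2264705, plus strand: agccaacatcacagtgaaatcctccattaa
Myh11, probe 1, chr10:769508-769567, plus strand: tgctgtcaaagccaagcttaagtccactgt
Myh11, probe 2, chr10:719479-719538, plus strand: tggacccgctaaatgataatgtgacctcac
Tpm1, probe 1, chr8:71331669-71331728, minus strand: gatgttggagacaatcaggtgcagattggt
Tpm1, probe 2, chr8:71340322-71340381, minus strand: tctcagaaagaagacaagtatgaagaggag
Tpm1, probe 3, chr8:71340840-71341650, minus strand: gaaggcaaatgtgccgagcttgaagaagag
Tpm1, probe 4, chr8:71336933-71336989, minus strand: ccagcacagaccgtgctttctattgtacag
The positions of the Tagln probe span 381 bases, those of the Ppp1r14a probe 2035 and those of the third Tpm1 probe 811, so these 60-base probes are spread over more than 1 genomic block. The positions of the other printed probes span 57 to 60 bases. The 2 Myh11 probes are far apart in the gene, the brighter from base 769508 and the dimmer from base 719479 of chromosome 10.

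Signals are log2 values of the processed intensity after quantile normalization between arrays, and a value of one probe cannot be set against that of another. Between 66.7% and 74.8% of probes were flagged as well above background on the single arrays, and the number of arrays limits the precision. The arrays lay on 4 slides that were not balanced over the groups: GK-S-30 and sham shared 1 slide with 2 arrays each, sham and Wistar shared 1 with 3 and 1 arrays, and GK-S-30 and Wistar shared none. GK-Sham-PF replicate 4 stood apart, since it was the highest of its group in 28 of the 36 members, while GK-Sham-PF replicate 5 was the lowest in 19, and these were the arrays on the slide shared with GK-S-30. Wistar replicate 1, the only Wistar array on the slide shared with sham, was the highest of its group in 19, and GK-S-30 replicate 1 was the lowest in 21. Before normalization, Wistar replicate 3 and replicate 5 of the sham group had a dimmer signal than the other 13 arrays. The 11 epithelial markers with a probe and the smooth muscle genes Myh11 and Des were well above background on all 15 arrays. All 36 tested members were well above background on every array, so none was tested only because 1 group was high.

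The RL of GK-S-30 rats had higher signals of contractile and cytoskeletal genes than the intestine of sham rats. Of the 36 tested members, 18 rose and 0 fell at an adjusted p under 0.05 (limma over all tested genes, here and below). Over all tested genes 9.65% changed in either direction and 5.16% rose. The 36 members had a median log2 fold change of 0.65, beside -0.03 over all tested genes. In 17 members the 5 GK-S-30 arrays all lay above the 5 sham arrays, beside 4.65% of all tested genes. Against Wistar rats, 21 members rose and 1 fell in GK-S-30 rats, beside 26.2% of all genes changed in either direction and 12.4% that rose, and the median was 0.68 beside -0.02. The GK-S-30 arrays lay above all Wistar arrays in 20 members, beside 9.21% of all genes. Between sham and Wistar rats only 1 member rose and 1 fell, 5.56% of 36 beside 8.83% of all genes, with a median of -0.03 beside 0.01. Each pair of comparisons shares the arrays of 1 group, so they are not independent.

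The slides bear on all 3 comparisons. Within the slide that GK-S-30 and sham shared, 29 of 36 members were higher in GK-S-30 rats, all 18 called members among them, with a median of 0.74. The arrays of this slide are among those from which the 18 were called, so the agreement is partly built in. The share of all tested genes higher within this slide was not counted. With slide as a fixed block, 6 members passed the adjusted threshold (Actg2, Cnn1, Myl9, Des, Csrp1 and Pln), beside 285 of all tested genes. At an unadjusted p under 0.05, 20 members were higher. Counts of all genes at an unadjusted p were not taken for this block, so the unadjusted counts have nothing to be set against. GK-S-30 and Wistar shared no slide, and with the slide block their difference rests on sham arrays and on Wistar replicate 1 alone. Limma then called 0 of 36 members, beside 237 of all genes at the adjusted threshold. At an unadjusted p under 0.05 there were 7 members, 5 of them higher. The median was 0.41, and group and slide cannot be told apart there. Within the slide of sham and Wistar, with 3 arrays against 1, the median was -0.24, with Itga7 at -1.56 and Tpm1 at 0.37, and neither passed with the slide block (0 called, 6 at an unadjusted p under 0.05, all of them lower). Without GK-Sham-PF replicate 4, 21 members rose and 0 fell in GK-S-30 against sham rats, beside 1024 of all tested genes called. Myh11 (1.05, adjusted p = 0.0422), Smtn (0.68, adjusted p = 0.0223) and Itga7 then passed the threshold in addition to the 18. This array was singled out after it was seen to be the highest of its group in 28 of the 36 members. Leaving it out therefore lowers the sham mean of those members.

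**Figure D1:**
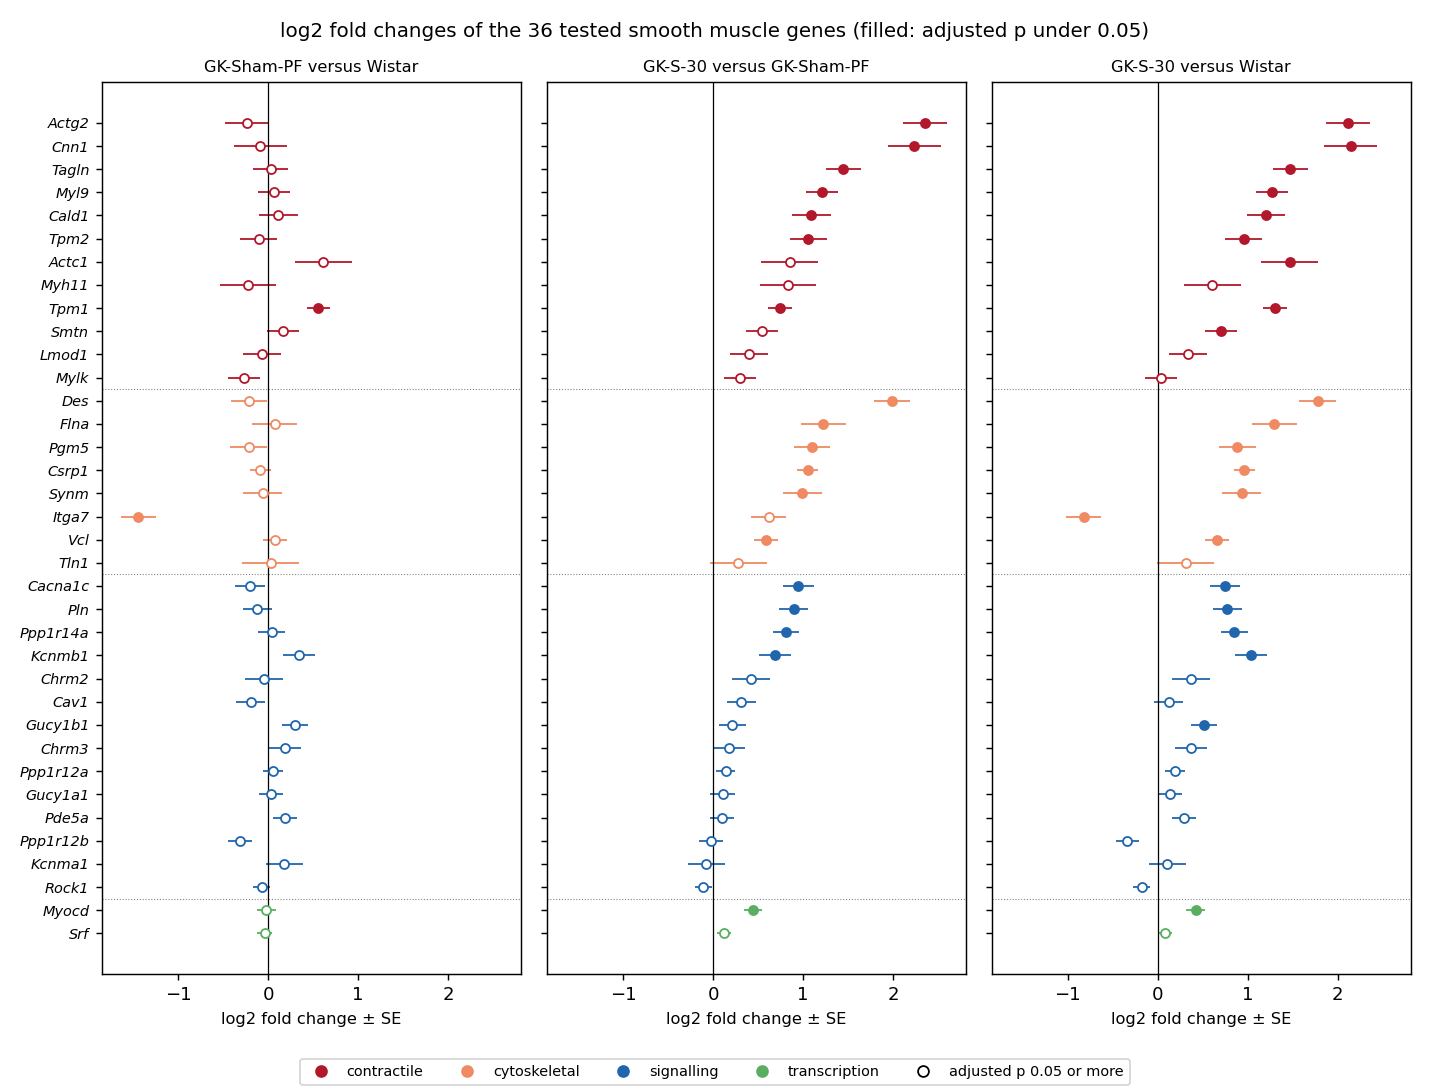
log2 fold changes of the 36 tested members with their SE in the 3 comparisons, grouped by role, with filled points at an adjusted p under 0.05 (limma). Most contractile and cytoskeletal genes lie to the right of 0 in both comparisons of GK-S-30, the filled signalling genes lie to the right of 0, and between sham and Wistar only Tpm1 and Itga7 are filled.

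Of the 12 tested contractile genes, 7 rose in GK-S-30 against sham rats (Actg2, Cnn1, Tagln, Myl9, Cald1, Tpm2 and Tpm1), with a median log2 fold change of 0.96 over the 12, and 9 rose against Wistar rats, where Actc1 and Smtn joined them. These were 58.3% and 75% of the 12, beside 5.16% and 12.4% of all tested genes that rose. Against sham rats the largest difference among the members was that of Actg2, the enteric smooth muscle gamma-actin. The log2 signal of Actg2 was 14.02, 13.01, 13.02, 13.44 and 13.21 on Wistar replicates 1 to 5, 12.92, 12.76, 13.07, 14.09 and 12.67 on sham (GK-Sham-PF) replicates 1 to 5 and 15.17, 15.45, 15.54, 15.52 and 15.59 on GK-S-30 replicates 1 to 5. All GK-S-30 arrays lay above all arrays of the other groups, and GK-Sham-PF replicate 4 and Wistar replicate 1 were high in their groups. The log2 fold change was 2.35 ± 0.24 (SE, adjusted p = 5.96e-05) against sham and 2.12 ± 0.24 (SE, adjusted p = 1.85e-05) against Wistar rats, a 5.11-fold and a 4.34-fold difference. Actin genes share much of their coding sequence, and how far this probe also binds other actin transcripts was not tested. For Cnn1, the Wistar arrays gave 9.36, 8.73, 8.06, 8.59 and 8.63, the sham arrays 8.72, 8.55, 8.45, 9.59 and 7.62 and the GK-S-30 arrays 10.71, 10.70, 11.23, 10.53 and 10.93. Cnn1 encodes calponin 1, which binds thin filaments and restrains the myosin ATPase, and its GK-S-30 arrays did not overlap with those of either other group. The difference was 2.23 ± 0.29 (SE, adjusted p = 0.000319) against sham and 2.14 ± 0.29 (SE, adjusted p = 8.86e-05) against Wistar rats, and that between sham and Wistar rats was -0.09 ± 0.29 (SE, adjusted p = 0.911).

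In the same order of arrays, Tagln measured 12.84, 12.13, 12.12, 12.42 and 12.34 in Wistar, 12.29, 12.34, 12.34, 13.16 and 11.85 in sham and 13.58, 13.91, 13.95, 13.94 and 13.85 in GK-S-30 rats. Tagln encodes transgelin (SM22), an actin-bundling protein of differentiated smooth muscle, and here too the GK-S-30 arrays did not overlap with the others. It rose by 1.45 ± 0.20 (SE, adjusted p = 0.000409) on the log2 scale against sham and by 1.47 ± 0.20 (SE, adjusted p = 7.11e-05) against Wistar rats. Signals of Tpm1 were 12.78, 12.62, 12.21, 12.58 and 12.63 in the 5 Wistar rats, 13.04, 13.15, 13.26, 13.46 and 12.70 in the 5 sham rats and 13.80, 13.93, 13.88, 13.90 and 13.82 in the 5 GK-S-30 rats. Tpm1, a tropomyosin that lies along the actin filament, was ordered Wistar, sham and GK-S-30, with GK-S-30 above every other array and GK-Sham-PF replicate 5 the only sham array within the Wistar range. The log2 fold change was 0.74 ± 0.13 (SE, adjusted p = 0.0026) between GK-S-30 and sham, 0.56 ± 0.13 (SE, adjusted p = 0.0128) between sham and Wistar and 1.30 ± 0.13 (SE, adjusted p = 4.49e-06) between GK-S-30 and Wistar. A rise from Wistar to sham was seen with the brightest probe, while the second brightest gave -0.02.

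Myl9, the regulatory light chain on which myosin light chain kinase acts, rose by 1.21 ± 0.18 (SE, adjusted p = 0.000715) against sham rats. Cald1, which encodes the thin-filament protein caldesmon, rose by 1.09 ± 0.21 (SE, adjusted p = 0.00551), and Tpm2, another tropomyosin, by 1.06 ± 0.21 (SE, adjusted p = 0.00527). Myl9 ranged from 16.29 to 16.76 in GK-S-30, 14.68 to 15.85 in sham and 15.10 to 15.60 in Wistar rats, Cald1 from 10.39 to 11.24 in GK-S-30, 9.12 to 10.32 in sham and 9.10 to 9.72 in Wistar rats and Tpm2 from 16.31 to 16.68 in GK-S-30, 14.88 to 16.21 in sham and 15.26 to 16.01 in Wistar rats. The GK-S-30 arrays of all 3 lay above every array of both other groups, though Cald1 and Tpm2 did so narrowly over GK-Sham-PF replicate 4. Actc1, the cardiac alpha-actin also made by smooth muscle, had 6.05 ± 0.72, 6.66 ± 0.47 and 7.52 ± 0.42 (mean and SD, n = 5) in Wistar, sham and GK-S-30 rats. It passed the test against Wistar rats (1.47 ± 0.32 SE, adjusted p = 0.00327, and 0.81 with the normexp background, which lifts dim signals) and not against sham rats (0.86 ± 0.32 SE, adjusted p = 0.107), where the arrays overlapped. Smtn, encoding smoothelin of contractile smooth muscle, likewise passed against Wistar (0.71 ± 0.18 SE, adjusted p = 0.00925) and not against sham rats (0.54 ± 0.18 SE, adjusted p = 0.0703). It ranged from 11.32 to 11.96 in GK-S-30, 10.67 to 11.68 in sham and 10.53 to 11.30 in Wistar rats, so that GK-S-30 overlapped with sham, by replicate 4, and not with Wistar.

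The motor protein itself, smooth muscle myosin heavy chain (Myh11), did not pass the test. For Myh11, the Wistar arrays gave 12.17, 11.49, 10.91, 11.76 and 11.86, the sham arrays 11.52, 11.79, 10.92, 12.30 and 10.55 and the GK-S-30 arrays 12.44, 12.16, 12.76, 11.62 and 12.27. The groups overlapped, and sham ranged from the lowest value of all arrays, on replicate 5, to a value above 3 GK-S-30 arrays, on replicate 4. The log2 fold change was 0.83 ± 0.31 (SE, adjusted p = 0.112) against sham and 0.61 ± 0.31 (SE, adjusted p = 0.167) against Wistar rats. Mylk, the myosin light chain kinase, had 0.30 ± 0.18 (SE, adjusted p = 0.335) against sham and 0.03 ± 0.18 (SE, adjusted p = 0.916) against Wistar rats, and Lmod1, leiomodin 1, which nucleates actin filaments, had 0.40 ± 0.21 (SE, adjusted p = 0.263) and 0.34 ± 0.21 (SE, adjusted p = 0.259). Myl6, the essential light chain measured as Myl6l and not counted among the 36, lay between 16.02 and 16.21 on the Wistar, 16.05 and 16.27 on the sham and 16.24 and 16.54 on the GK-S-30 arrays. It was 0.33 ± 0.08 (SE) higher in GK-S-30 than in Wistar rats (adjusted p = 0.00755) and 0.25 ± 0.08 higher than in sham rats, which did not pass (adjusted p = 0.0621).

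**Figure D2:**
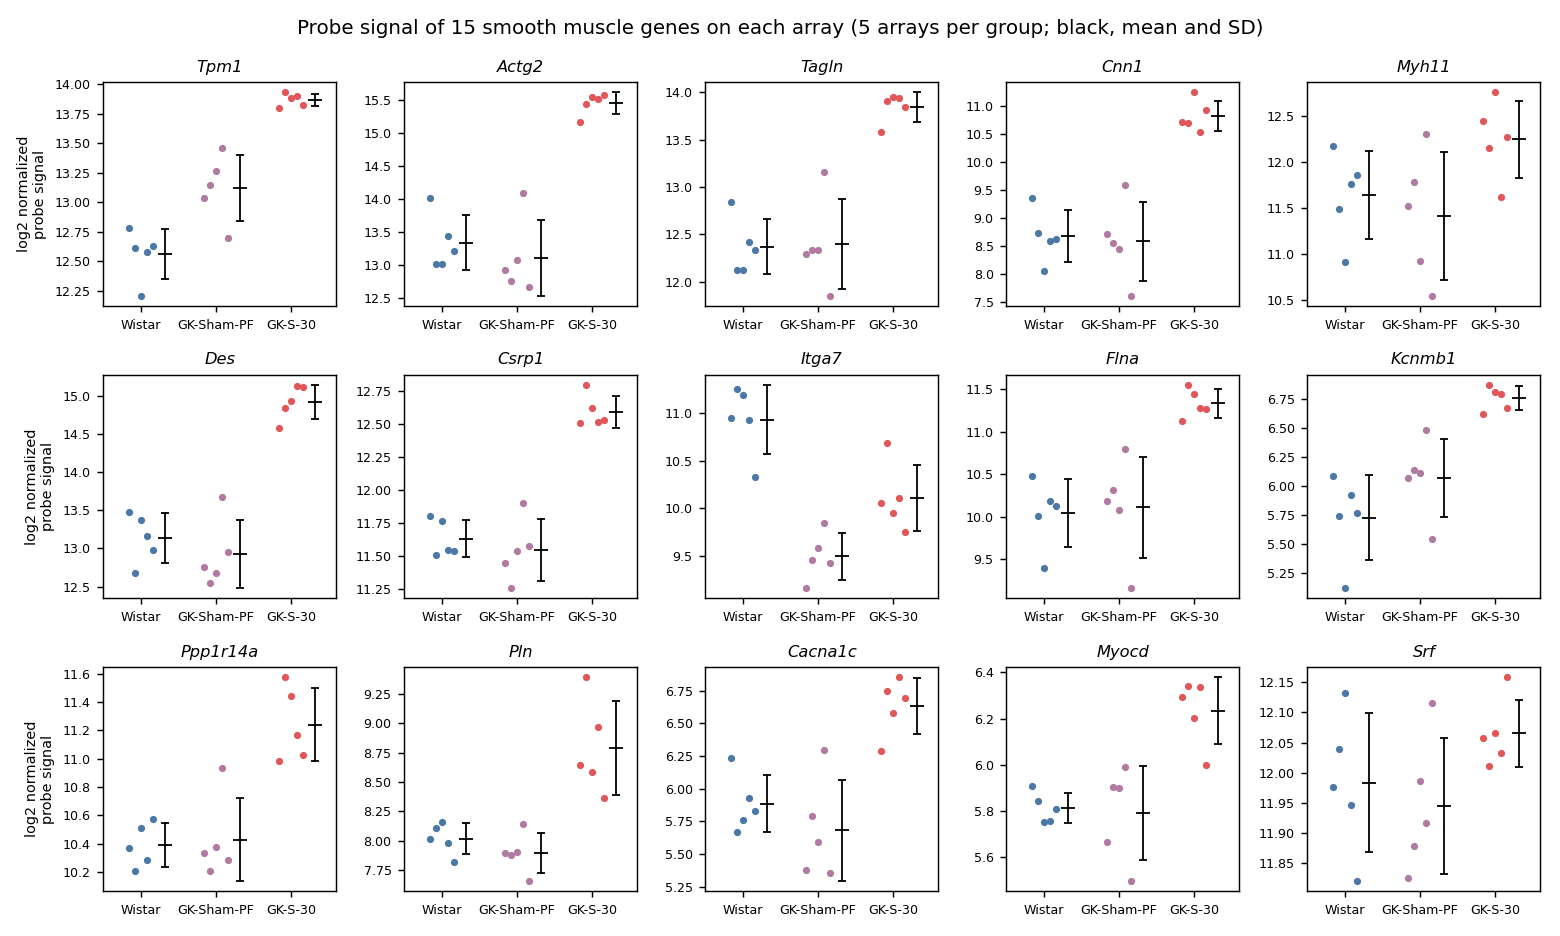
Signal of the probe of 15 members on each of the 15 arrays (log2 of the normalized intensity; colored points, arrays in replicate order; black bar, mean and SD of 5 arrays). The GK-S-30 points lie above all others in Tpm1, Actg2, Tagln, Cnn1, Des, Csrp1, Flna, Kcnmb1, Ppp1r14a, Pln and Myocd, while the groups overlap in Myh11 and Srf and the Wistar points are the highest in Itga7 but for replicate 5.

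Among the 8 tested cytoskeletal genes, 6 rose in GK-S-30 against sham rats (Des, Flna, Pgm5, Csrp1, Synm and Vcl), with a median of 1.02. The same comparison with Wistar rats gave 6 higher and 1 lower. Called genes were thus 75% and 87.5% of the 8, beside 9.65% and 26.2% of all tested genes. Des encodes desmin, the intermediate filament protein that links dense bodies and plaques. In the same order of arrays, Des measured 13.48, 12.68, 13.38, 13.17 and 12.98 in Wistar, 12.76, 12.55, 12.68, 13.67 and 12.95 in sham and 14.58, 14.83, 14.93, 15.12 and 15.11 in GK-S-30 rats. The lowest GK-S-30 array lay above the highest array of the other groups, and GK-Sham-PF replicate 4 was again the highest of its group. Des rose by 1.99 ± 0.20 (SE, adjusted p = 5.11e-05) against sham and by 1.78 ± 0.20 (SE, adjusted p = 1.55e-05) against Wistar rats, a 3.97-fold and a 3.43-fold difference.

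Signals of Csrp1 were 11.80, 11.51, 11.76, 11.55 and 11.54 in the 5 Wistar rats, 11.44, 11.25, 11.54, 11.90 and 11.58 in the 5 sham rats and 12.51, 12.80, 12.62, 12.51 and 12.53 in the 5 GK-S-30 rats. Csrp1 encodes a LIM-domain protein of the actin cytoskeleton, and its values were close together within groups, without overlap of GK-S-30 and the rest. The rise was 1.05 ± 0.11 (SE, adjusted p = 8.51e-05) against sham and 0.96 ± 0.11 (SE, adjusted p = 2.36e-05) against Wistar rats. For Flna, the Wistar arrays gave 10.48, 10.003, 9.39, 10.18 and 10.13, the sham arrays 10.19, 10.31, 10.08, 10.80 and 9.16 and the GK-S-30 arrays 11.12, 11.55, 11.44, 11.28 and 11.27. Flna encodes filamin A, an actin cross-linker, and sham ranged most widely, with replicate 5 low and replicate 4 high, both below every GK-S-30 array. It rose by 1.22 ± 0.25 (SE, adjusted p = 0.00669) and by 1.29 ± 0.25 (SE, adjusted p = 0.0014). Pgm5 (aciculin, a partner of the dense plaque) rose by 1.10 ± 0.20 (SE, adjusted p = 0.00333) against sham rats, Synm (synemin, an intermediate filament protein that pairs with desmin) by 0.99 ± 0.22 (SE, adjusted p = 0.0101) and Vcl (vinculin, which ties actin to adhesion sites) by 0.59 ± 0.13 (SE, adjusted p = 0.0131). Against Wistar rats the rises were 0.89, 0.93 and 0.66 on the log2 scale, and all 3 passed. The calls of Synm (adjusted p = 0.0627) and Vcl (adjusted p = 0.0567) against sham ended with the Tukey comparison adjusted over genes, and with the normexp background Pgm5 rose by 0.62 against sham and 0.51 against Wistar rats. Pgm5 ranged from 6.89 to 7.97 in GK-S-30, 5.96 to 6.70 in sham and 6.13 to 6.96 in Wistar rats, Synm from 13.35 to 13.64 in GK-S-30, 11.87 to 13.20 in sham and 12.10 to 12.99 in Wistar rats and Vcl from 9.85 to 10.34 in GK-S-30, 9.001 to 9.54 in sham and 8.96 to 9.47 in Wistar rats. The GK-S-30 arrays of Synm and Vcl lay above all others, and those of Pgm5 overlapped with Wistar replicate 3. Tln1, encoding talin 1, did not pass in any comparison (0.28 ± 0.32 SE, adjusted p = 0.649 against sham rats), and its lowest value on Wistar replicate 3 and on GK-Sham-PF replicate 5, both arrays with a dimmer overall signal, lay more than 1 log2 unit below the next.

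Itga7 was the one member that fell in a comparison. It encodes the integrin alpha 7 chain, a laminin receptor of muscle cells. In the same order of arrays, Itga7 measured 10.95, 11.26, 11.19, 10.94 and 10.33 in Wistar, 9.16, 9.45, 9.58, 9.84 and 9.43 in sham and 10.05, 10.69, 9.95, 10.10 and 9.75 in GK-S-30 rats. The sham arrays all lay below the Wistar arrays, and 1 GK-S-30 array, replicate 2, reached into the Wistar range. Itga7 fell by 1.44 on the log2 scale between Wistar and sham rats (SE 0.19, adjusted p = 0.000136) and was also lower in GK-S-30 than in Wistar rats, with -0.82 ± 0.19 (SE, adjusted p = 0.00559). The difference between GK-S-30 and sham was 0.62 ± 0.19 (SE, adjusted p = 0.0561), which did not pass over all 15 arrays. It passed without GK-Sham-PF replicate 4 (0.71, adjusted p = 0.0453), the highest sham array of Itga7, singled out after its values were seen. The dimmer Itga7 probe gave -1.07 between sham and Wistar, 0.61 between GK-S-30 and sham and -0.46 between GK-S-30 and Wistar rats.

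Of 14 tested signalling genes, 4 rose in GK-S-30 against sham rats (28.6%, beside 5.16% of all genes) and 5 against Wistar rats (35.7%, beside 12.4%), with medians of 0.20 and 0.33, and 0 fell. Whether the roles differ in this share was not tested. Between sham and Wistar rats limma called 0 of the 14, with 1 (Ppp1r12b) at an unadjusted p under 0.05 and 0 by the Tukey comparison that the study's methods name. Signals of Ppp1r14a were 10.37, 10.21, 10.51, 10.29 and 10.57 in the 5 Wistar rats, 10.34, 10.21, 10.38, 10.94 and 10.29 in the 5 sham rats and 10.99, 11.57, 11.44, 11.17 and 11.03 in the 5 GK-S-30 rats. Ppp1r14a encodes CPI-17, the inhibitor of myosin phosphatase, and all GK-S-30 arrays lay above the rest, closely so for GK-Sham-PF replicate 4 and GK-S-30 replicate 1. It rose by 0.81 ± 0.15 (SE, adjusted p = 0.00357) against sham and by 0.85 ± 0.15 (SE, adjusted p = 0.000684) against Wistar rats. The phosphatase targeting subunits did not pass: Ppp1r12a (MYPT1) differed by 0.14 ± 0.11 (SE, adjusted p = 0.488) and Ppp1r12b by -0.02 ± 0.13 (SE, adjusted p = 0.939) between GK-S-30 and sham rats. Rock1, a kinase that inhibits the same phosphatase, differed by -0.11 ± 0.10 (SE, adjusted p = 0.559).

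Of the members that bear on calcium, Cacna1c and Pln rose, while in the further signalling list Atp2a2 (0.01), Itpr1 (-0.02), Ryr2 (-0.47), Stim1 (0.08), Orai1 (-0.03) and Cacnb2 (-0.15), which encode calcium pumps, channels and sensors, did not pass between GK-S-30 and sham rats and were named after their values were seen. For Cacna1c, the Wistar arrays gave 6.23, 5.67, 5.76, 5.93 and 5.83, the sham arrays 5.38, 5.79, 5.59, 6.30 and 5.35 and the GK-S-30 arrays 6.29, 6.75, 6.58, 6.85 and 6.69. Cacna1c encodes the pore of the L-type calcium channel, and GK-Sham-PF replicate 4 reached just above the lowest GK-S-30 array, the only overlap of GK-S-30 with another group. The rise was 0.95 ± 0.17 (SE, adjusted p = 0.00324) against sham and 0.75 ± 0.17 (SE, adjusted p = 0.00492) against Wistar rats. With the normexp background it was 0.44 and 0.36 and still passed. In the same order of arrays, Pln measured 8.01, 8.11, 8.16, 7.98 and 7.81 in Wistar, 7.89, 7.87, 7.90, 8.14 and 7.66 in sham and 8.64, 9.39, 8.58, 8.97 and 8.36 in GK-S-30 rats. Pln encodes phospholamban, which restrains the calcium pump of the sarcoplasmic reticulum, and GK-S-30 values spread over about 1 log2 unit, all above the others. It rose by 0.90 ± 0.16 (SE, adjusted p = 0.00295) and by 0.77 ± 0.16 (SE, adjusted p = 0.00241).

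Signals of Kcnmb1 were 6.08, 5.74, 5.11, 5.92 and 5.77 in the 5 Wistar rats, 6.07, 6.14, 6.11, 6.48 and 5.54 in the 5 sham rats and 6.62, 6.88, 6.82, 6.80 and 6.68 in the 5 GK-S-30 rats. Kcnmb1 encodes the beta subunit of the large-conductance calcium-activated potassium channel, and its GK-S-30 arrays lay above all others, with GK-Sham-PF replicate 4 nearest to them. It rose by 0.69 ± 0.18 (SE, adjusted p = 0.0233) against sham and by 1.03 ± 0.18 (SE, adjusted p = 0.00057) against Wistar rats. These were 0.32 and 0.47 with the normexp background, and the call against sham ended with the Tukey comparison adjusted over genes (adjusted p = 0.106). The pore subunit of the same channel, Kcnma1, had 5.17 ± 0.09, 5.35 ± 0.35 and 5.27 ± 0.48 (mean and SD, n = 5) in Wistar, sham and GK-S-30 rats, and differed by -0.08 ± 0.21 (SE, adjusted p = 0.868) and 0.10 ± 0.21 (SE, adjusted p = 0.755). A dimmer Kcnma1 probe was well above background on only 6 arrays and was not tested. It gave 0.92 against sham and 0.99 against Wistar rats. Whether the changes of the 2 subunits differ was not tested.

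Gucy1a1 and Gucy1b1, subunits of the soluble guanylate cyclase that nitric oxide activates, differed between GK-S-30 and sham rats by 0.11 ± 0.13 (SE, adjusted p = 0.695) and 0.22 ± 0.15 (SE, adjusted p = 0.407), and Pde5a, which breaks down cyclic GMP, by 0.10 ± 0.13 (SE, adjusted p = 0.716). Gucy1b1 alone of these passed against Wistar rats (0.51 ± 0.15 SE, adjusted p = 0.0181), with 0.33 on the normexp background and an adjusted p of 0.0679 by the Tukey comparison over genes. Chrm2 and Chrm3, the acetylcholine receptors of gut muscle, differed by 0.42 ± 0.21 (SE, adjusted p = 0.247) and 0.18 ± 0.18 (SE, adjusted p = 0.6) against sham rats, and Cav1, the coat protein of caveolae, by 0.31 ± 0.16 (SE, adjusted p = 0.258). None of these 6 genes passed against sham rats, which does not show that they were equal.

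Of the transcription factors, Myocd rose, and Srf did not pass with its brightest probe. For Myocd, the Wistar arrays gave 5.91, 5.84, 5.75, 5.76 and 5.81, the sham arrays 5.67, 5.90, 5.90, 5.99 and 5.50 and the GK-S-30 arrays 6.29, 6.34, 6.20, 6.34 and 5.999. Myocd encodes myocardin, the muscle-restricted partner of serum response factor, and the lowest GK-S-30 array, replicate 5, lay just above the highest of the other groups. The rise was 0.44 ± 0.10 (SE, adjusted p = 0.0146) against sham and 0.42 ± 0.10 (SE, adjusted p = 0.00727) against Wistar rats, and both were 0.22 with the normexp background. In the same order of arrays, Srf measured 11.98, 12.04, 12.13, 11.95 and 11.82 in Wistar, 11.82, 11.88, 11.99, 11.92 and 12.12 in sham and 12.06, 12.01, 12.07, 12.03 and 12.16 in GK-S-30 rats. Srf overlapped between all groups and differed by 0.12 ± 0.08 (SE, adjusted p = 0.403) and 0.08 ± 0.08 (SE, adjusted p = 0.494). The CArG box, the 10-base site bound by serum response factor, was searched in promoters from RefSeq (build GRCr8, 250 bases before to 50 after each gene start, both strands). It occurred in 1.64% of 33469 promoters, and in those of 2 of the 30 tested members that had an entry, Actc1 and Srf. They are shown because Actc1 is a contractile target and Srf binds the box itself, with the box in capitals within 30 bases.
Actc1, chr3:121271806-121271835, minus strand: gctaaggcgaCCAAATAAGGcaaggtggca
Srf, chr9:21923985-21924014, plus strand: ctggggctcgCCATATAAGGagcggcctcg
Srf, chr9:21924005-21924034, plus strand: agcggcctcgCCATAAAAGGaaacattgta
A match is a sequence description only, and sites outside this window were not searched.

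Where a member had several tested probes (16 members), all of them pointed the same way in 13 members between GK-S-30 and sham, in 14 between GK-S-30 and Wistar and in 10 between sham and Wistar rats. The share of other genes whose probes point the same way was not counted, so these counts have nothing to be set against. The 2 Myh11 probes gave unlike values. The brighter probe ranged from 11.62 to 12.76 in GK-S-30 and from 10.55 to 12.30 in sham rats, and the dimmer one from 10.34 to 10.88 and from 10.11 to 10.96. The mean difference was 0.83 with the former and -0.01 with the latter, so the measured change of Myh11 depended on the probe. All 4 Tpm1 probes were higher in GK-S-30 than in sham rats, by 0.74, 0.68, 1.16 and 0.41 from the brightest to the dimmest, and between sham and Wistar rats they differed by 0.56, -0.02, 0.00 and 0.23 in the same order. Vcl was higher by 0.59 with the brightest probe and by 0.27 and 0.29 with the others against sham rats, and by 0.66, 0.15 and 0.22 against Wistar rats, and the second brightest passed in neither (adjusted p = 0.347 and 0.536). The 3 Srf probes gave 0.12, 0.16 and 0.38 against sham and 0.08, 0.49 and 0.49 against Wistar rats. Pde5a gave 0.29 and -0.22 against Wistar rats. With the second brightest probe, the rise against Wistar rats was 0.66 for Tpm1 and 0.60 for Cald1, both past the threshold, and Itga7 did not pass there (adjusted p = 0.211). The 3 Cav1 probes differed by 0.31, 0.18 and 0.72 between GK-S-30 and sham rats, the last with the dimmest probe. Against Wistar rats they gave 0.12, 0.14 and 0.71 in the same order.

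**Figure D3:**
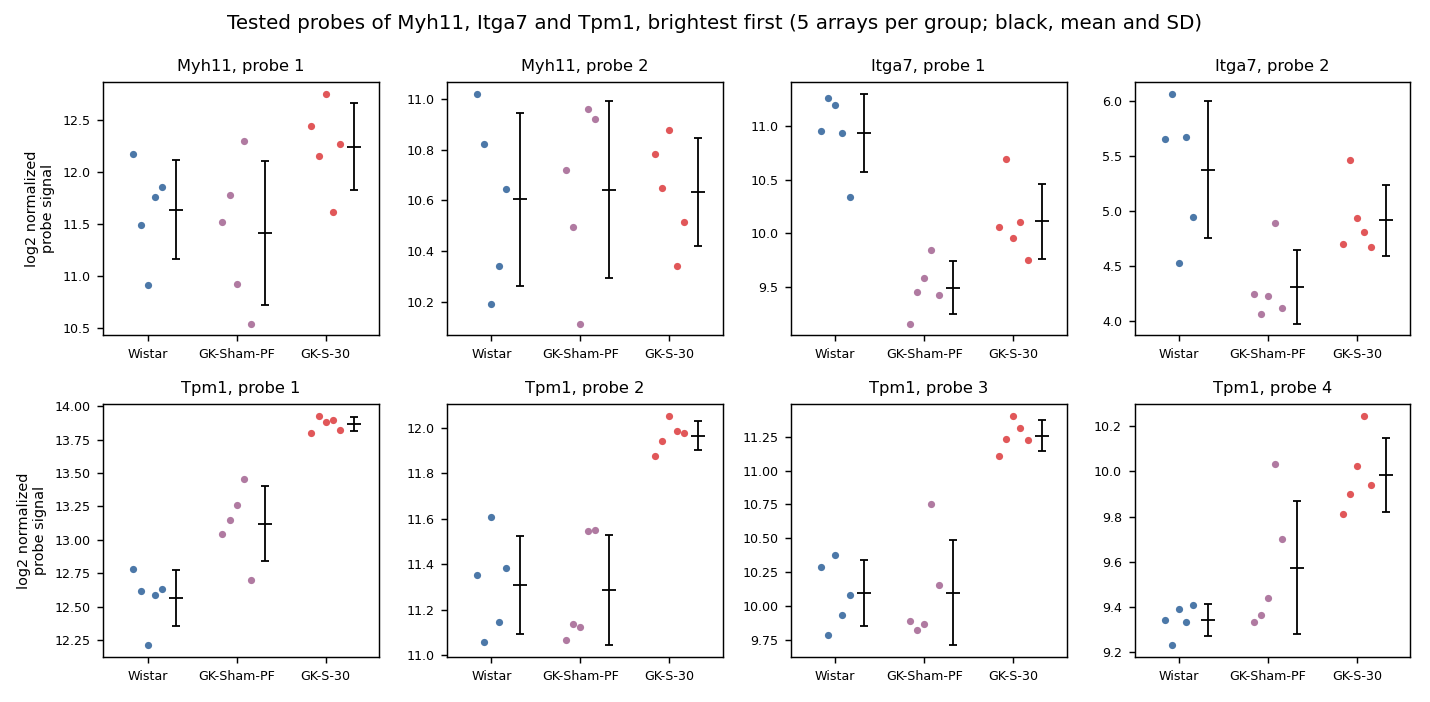
Signal of each tested probe of Myh11, Itga7 and Tpm1 on the 15 arrays, brightest probe first (log2 of the normalized intensity; black bar, mean and SD of 5 arrays). The GK-S-30 points lie above all others in Tpm1 probes 1 to 3 and overlap GK-Sham-PF replicate 4 in probe 4, both Itga7 probes are lower on average in sham than in Wistar, and in Myh11 probe 2 the 3 groups overlap.

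Other genes of the same apparatus were counted from lists of related genes. Of 21 tested structural genes, 7 rose in GK-S-30 against sham rats and 0 fell (33.3%, beside 5.16% of all tested genes that rose, median 0.32). Against Wistar rats 11 rose and 2 fell (61.9% called, beside 26.2% of all tested genes). The 2 that fell, Dmd (-0.42 ± 0.12 SE, adjusted p = 0.0185) and Ldb3 (-0.70 ± 0.23 SE, adjusted p = 0.0367), which encode dystrophin and a Z-disc protein, were named after their values were seen, as was Hspb1, which with Parva rose between Wistar and sham rats (1.06 ± 0.28 SE, adjusted p = 0.0266). Between sham and Wistar rats 9.52% of the structural genes were called, near the 8.83% of all tested genes. Hspb6, a small heat shock protein that takes part in smooth muscle relaxation, rose by 1.21 ± 0.18 (SE, adjusted p = 0.000674) against sham rats and lay between 10.31 and 10.74 on the GK-S-30 arrays, 9.10 and 10.07 on the sham and 9.10 and 9.74 on the Wistar arrays. Fhl1, a LIM-domain protein of muscle, rose by 1.13 ± 0.17 (SE, adjusted p = 0.000793), with every GK-S-30 array at 12.19 or above and every other array at 11.66 or below. Parva, an adaptor at integrin adhesions, was higher in sham than in Wistar rats by 0.64 ± 0.12 (SE, adjusted p = 0.00188), all sham arrays lying at 8.97 or above and all Wistar arrays at 8.88 or below, and did not pass between GK-S-30 and sham rats (0.27 ± 0.12 SE, adjusted p = 0.163). Of 20 tested further signalling genes, limma called 0 between GK-S-30 and sham rats, with 2 at an unadjusted p under 0.05 and 0 by the Tukey comparison, and the median was -0.03. Against Wistar rats the gap junction gene Gja1 rose by 0.40 ± 0.11 (SE, adjusted p = 0.0172), while the ATP receptor gene P2rx1 (-0.64 ± 0.18 SE, adjusted p = 0.017) and the neurokinin 2 receptor gene Tacr2 (-0.46 ± 0.13 SE, adjusted p = 0.0184) fell. Called genes were 15% of these 20 against Wistar rats, below the 26.2% of all tested genes.

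Summed by role, the mean level on the single arrays, set against the Wistar mean, ran from 1.02 to 1.30 log2 units in GK-S-30 for the 12 contractile genes, from -0.40 to 0.66 in sham and from -0.31 to 0.38 in Wistar rats. For the cytoskeletal genes the ranges were 0.60 to 0.99, -0.60 to 0.23 and -0.17 to 0.23, and neither role overlapped between GK-S-30 and the others. The signalling genes ran from 0.06 to 0.62 in GK-S-30, from -0.10 to 0.30 in sham and from -0.11 to 0.08 in Wistar rats, so these overlapped.

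**Figure D4:**
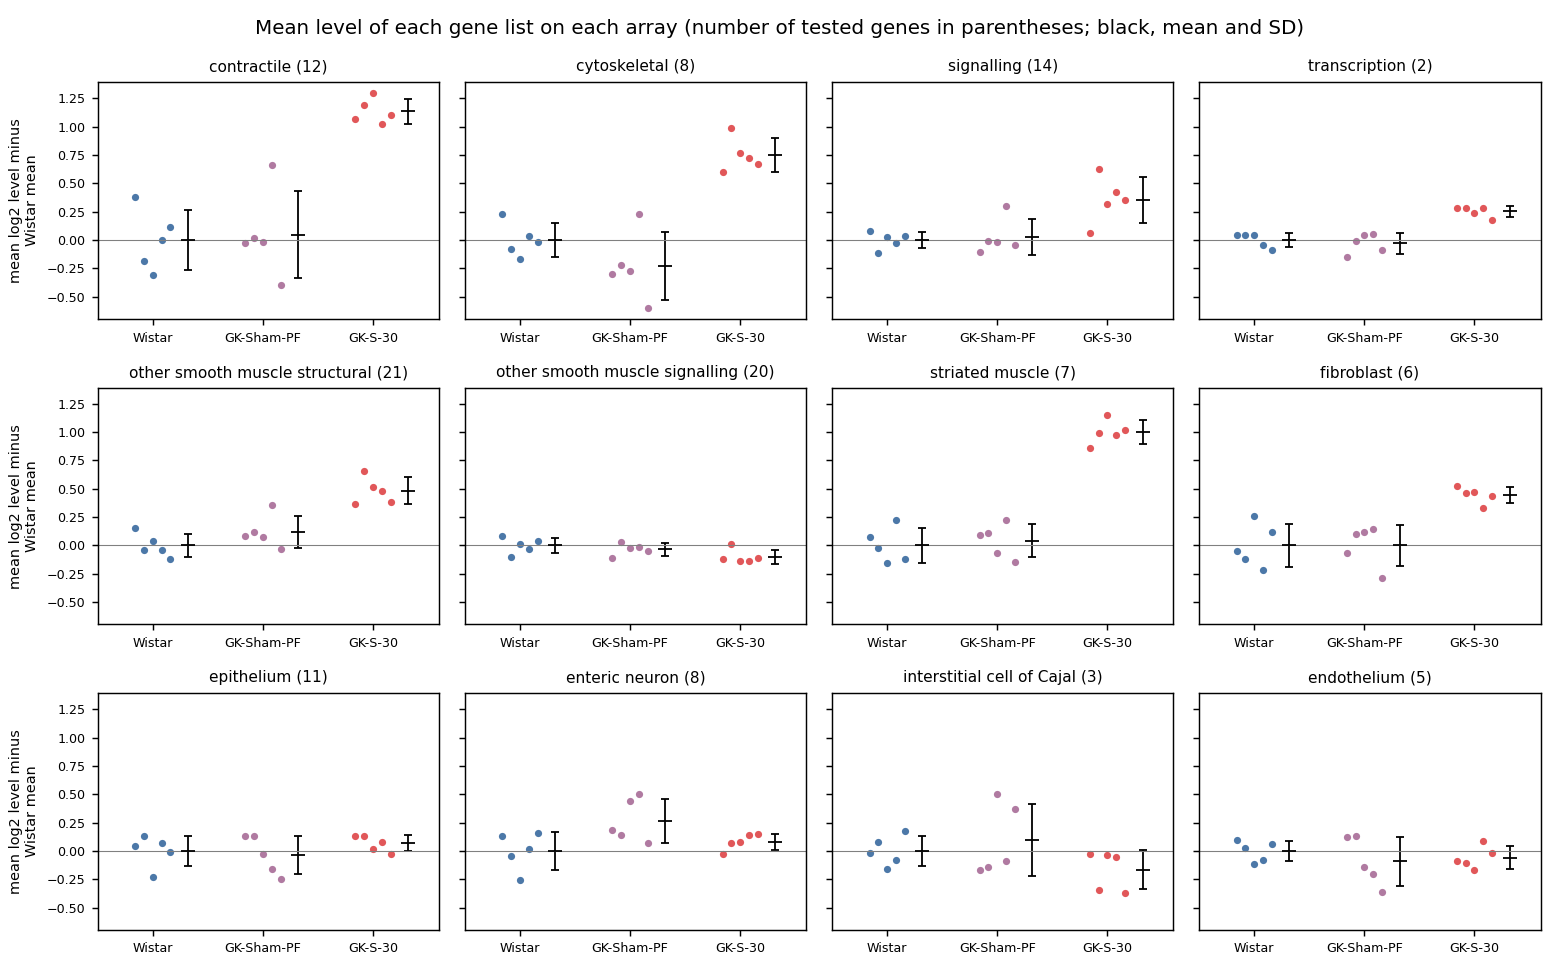
Mean log2 level of each gene list on each array, set against the mean of the Wistar arrays, with the number of tested genes in parentheses (colored points, arrays in replicate order; black bar, mean and SD of 5 arrays). The contractile, cytoskeletal, transcription, other structural, striated muscle and fibroblast lists are higher on all GK-S-30 arrays than on the others, while the further signalling genes and the epithelial, endothelial and interstitial cell lists lie within about 0.5 log2 units of the Wistar mean.

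Marker lists of other cells moved with these genes in part, and their part in the result was not tested. Between GK-S-30 and sham rats 9.65% of all tested genes changed. Of 7 tested striated muscle markers, 3 rose and 1 fell in GK-S-30 against sham rats, and the mean of the list lay between 0.86 and 1.15 in GK-S-30, -0.15 and 0.22 in sham and -0.15 and 0.22 in Wistar rats. Myh6, the cardiac alpha-myosin heavy chain, rose by 2.82 ± 0.23 (SE, adjusted p = 5.70e-06) and lay between 8.26 and 9.12 on the GK-S-30 arrays and between 5.64 and 6.78 on all others. Myh7, the beta-myosin heavy chain, rose by 2.71 ± 0.22 (SE, adjusted p = 5.99e-06), and Acta1, the skeletal alpha-actin, by 0.96 ± 0.28 (SE, adjusted p = 0.0402). Tnni2, a fast skeletal troponin, changed the other way (-0.62 ± 0.13 SE, adjusted p = 0.00667), and the fast skeletal myosins Myh4, Myh1 and Myh2 were well above background on 0, 2 and 3 of the 15 arrays.

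Of 6 fibroblast markers 4 rose, the collagen genes Col1a1 (0.60 ± 0.16 SE, adjusted p = 0.0338), Col1a2 and Col3a1 and the collagen-binding Lum (1.15 ± 0.22 SE, adjusted p = 0.00497), and the list mean lay between 0.33 and 0.52 in GK-S-30, -0.28 and 0.15 in sham and -0.21 and 0.26 in Wistar rats. Dcn (-0.06 ± 0.12 SE, adjusted p = 0.818) and Pdgfra (-0.35 ± 0.11 SE, adjusted p = 0.0629) did not pass against sham rats. For Pdgfra all GK-S-30 arrays lay below all sham arrays, so the list did not move as one. The 11 epithelial markers had a median log2 fold change of 0.06 between GK-S-30 and sham rats, with Krt18 and Krt19 higher, and their list mean lay between -0.03 and 0.13, -0.25 and 0.13 and -0.23 and 0.13 in the 3 groups. Of 8 enteric neuron markers only Prph changed between GK-S-30 and sham rats, downward. The list mean lay between -0.03 and 0.15 in GK-S-30, 0.07 and 0.50 in sham and -0.26 and 0.16 in Wistar rats, so GK-S-30 lay within the Wistar range. Nos1 was not well above background on any array. Of 3 glial markers Gfap fell and S100b was not well above background on any array. Limma called 0 of 3 markers of interstitial cells of Cajal, the pacemakers of the gut, with 1 at an unadjusted p under 0.05 and 0 by the Tukey comparison. Vwf of 5 endothelial markers and Rgs5 of 4 pericyte markers rose, and Cd3e of 6 leukocyte markers fell, with the leukocyte mean between -0.48 and -0.24 in GK-S-30, -0.45 and 0.09 in sham and -0.17 and 0.26 in Wistar rats. Against Wistar rats more markers were called, as were more of all tested genes (26.2%, beside 9.65% against sham rats). Among 7 striated muscle markers 5 rose and 1 fell, among 6 fibroblast markers 4 rose, and among 6 leukocyte markers 1 rose and 4 fell. Of the pericyte markers 2 rose and 1 fell of 4, of the epithelial 2 rose and 1 fell of 11, of the endothelial 1 rose and 1 fell of 5, and of the enteric neuron markers Prph fell and Vip rose. The shares called of the epithelial (27.3%) and enteric neuron (25%) markers lay near that of all tested genes. Vip (0.83 ± 0.18 SE, adjusted p = 0.00374) was also higher in sham than in Wistar rats (0.71 ± 0.18 SE, adjusted p = 0.0243).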

How the data were processed

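RNA of 15 intestinal segments, 5 per group, was hybridized to 1-color Agilent rat arrays, 1 array per rat. The deposited scanner files hold, for each spot, a processed signal intensity that Agilent Feature Extraction 10.7 (named in the submitters' processing notes) made from the scan, with flags for signal above background. The authors' deposited value table holds log2 values, which per their methods were quantile-normalized in GeneSpring. All 15 of its columns had a median of 5.61, and each ranked the probes as the scanner values of its array did (a Spearman correlation of 1 after rounding, across probes, which are not independent). It was used as an alternative, its direction is that of the signal, and whether it was adjusted otherwise is not given in the sources used here.

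From the scanner files, control and outlier spots were left out, repeated spots were averaged by probe, and the log2 processed signal was quantile-normalized (R 4.3.3, limma 3.58.1). Probes entered the test when all 5 arrays of some group flagged them as well above background, and the brightest of these stood for a gene. Of 41012 probes, 22503 had a gene name, taken through accessions and symbols of RefSeq where these matched (17541 probes by accession, 3098 by symbol, 539 by synonym) and otherwise from the files (1325). Members were matched by the name in the files. A single limma model without covariates was fitted to all 15 arrays, with p-values adjusted over all 13024 tested genes by Benjamini-Hochberg and a threshold of 0.05. The arrays come from separate rats.

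The members and gene lists were chosen with earlier results of these data known. Values on every array are given for Actg2, Myh11, Des, Myocd and, in each role, the 4 members with the smallest adjusted p in any comparison. From the further smooth muscle lists the 3 genes with the smallest adjusted p in each are named, and markers were named from their lists. Hspb6, Fhl1, Parva, Gja1, P2rx1 and Tacr2 were named by this rule. Replicate numbers were not taken as pairs, since the labels give no shared litter, batch or day and same-numbered arrays did not deviate together. Alternatives were the 75th percentile as scaling, normexp background (offset 50), other filters on dim probes, outlier spots kept, the next brightest probe, the value table, the study's Tukey comparison, fits of the compared groups alone, slide or replicate blocks, and leaving out single arrays. Leaving out the 2 dimmer arrays was chosen after seeing the data. The fitting was tested on simulated data. Figures were drawn with matplotlib 3.10.9. Probe sequences come from the array files. Promoters come from RefSeq tables, which held 35 of the 42 members.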

Additional observations from a re-analysis of the deposited data

Results flagged for a closer look

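In groups of 5 arrays, 12 of 108 group values of members lay far from the other 4 arrays by Dixon's criterion. For independent groups chance alone marks about 1 in 20. The members share the same 15 arrays and their groups are not independent, so the 12 cannot be read as an excess. GK-Sham-PF replicate 4 was high in Actg2 (14.09, next 13.07), Ppp1r12a (11.82, next 11.55) and Ppp1r14a (10.94, next 10.38). GK-Sham-PF replicate 5, a dimmer array, was low in Tln1 (7.36, next 8.63) and Vcl (9.001, next 9.45). Wistar replicate 3, the other dimmer array, was low in Tln1 (7.63, next 8.69) and Ppp1r12b (5.22, next 5.50). Wistar replicate 1 was high in Myl9 (15.60, next 15.16) and Tpm2 (16.01, next 15.44), and Wistar replicate 4 was low in Cald1 (9.10, next 9.59). Among GK-S-30 arrays, replicate 1 was low in Tagln (13.58, next 13.85) and replicate 2 high in Vcl (10.34, next 9.92). All values are log2 signals of 1 probe each.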

How the results depend on the processing

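With 5 arrays a group, the slides set the widest limit. With slide as a fixed block, called members were 0 between sham and Wistar, 6 between GK-S-30 and sham and 0 between GK-S-30 and Wistar rats, and further smooth muscle genes 0, 1 and 1. All genes called were then 179, 285 and 237. In that fit, and within the shared slide, the median of members between sham and Wistar was -0.24, with role means of -0.39 (contractile) and -0.49 (cytoskeletal). Between GK-S-30 and Wistar the median was 0.41, with role means of 0.61, 0.49 and 0.0892 for contractile, cytoskeletal and signalling genes. With slide as a random block, 2, 18 and 22 members were called, as without it. All genes called were then 1288, 1392 and 3775, beside 1150, 1257 and 3413 without the block. The normexp background gave a median of 0.49 between GK-S-30 and Wistar, and transcription means of 0.17 there and 0.20 between GK-S-30 and sham. The second brightest probe gave Tpm1 -0.0242 between sham and Wistar, where 1 member was then called, and transcription means of 0.15 between sham and Wistar and 0.45 between GK-S-30 and Wistar. The Tukey comparison adjusted over genes called 1, 15 and 21 members, with 713, 503 and 2273 of all genes, and the calls of Tpm1 (sham and Wistar), Kcnmb1, Synm and Vcl (GK-S-30 and sham) and Gucy1b1 (GK-S-30 and Wistar) ended, and unadjusted it called 2120 genes between GK-S-30 and sham rats. The cause of these shifts was not tested.

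Leaving out 1 array at a time gave 2 to 2, 18 to 21 and 22 to 23 called members in the 3 comparisons, with medians of -0.10 to 0.07, 0.58 to 0.75 and 0.58 to 0.76. Beside these, 865 to 1215, 866 to 1501 and 2823 to 3698 of all genes were called. Further smooth muscle genes called were 1 to 2, 5 to 8 and 14 to 18. All 42 calls of single members held in each of these 15 fits. With the replicate number as a block, 2, 19 and 23 members were called, beside 855, 889 and 2855 of all genes. Same-numbered arrays of different groups had correlations of -0.28 to 0.18, beside -0.38 to 0.57 for other numbers. Only 1 of 15 arrays correlated best with its own number. These values give no sign of pairs but cannot show that same-numbered samples share no litter, batch or day.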
